A study of Mus musculus with 7 samples.

Results

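Splicing factor genes were examined in CD150-negative mouse cells with and without a deletion in chromosome band 5G2. The set was chosen by symbol, not by expression: every gene of the deposited table whose name begins Srsf followed by a digit, Sf3a or Sf3b, Snrp, U2af, or Prpf followed by a digit. It held 49 of 16760 listed genes, in 5 subfamilies: 11 SR protein genes, 9 SF3A and SF3B genes, 13 Sm and other snRNP protein genes, 3 U2AF genes and 13 PRPF genes. Of these, 48 were protein-coding in the GENCODE M21 annotation and 1, Snrpert, was a processed pseudogene. The choice of members and of the lists below was made with earlier results of these data known.

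The study compared 4 wild-type (WT) libraries with 3 that carry the deletion (5G2del), all of strain C57/B6, with HSC, the haematopoietic stem cell, as the labelled cell type. Band 5G2 corresponds to part of human band 7q22, which is often lost in myeloid malignancies. Slamf1 encodes CD150, and the labels name no further sort marker, age or sex. The sources used here do not say how many copies are deleted, where the deletion ends, or whether each library had its own animal, so the spread that p-values rest on may in part be technical. Library columns carry the group but not the sample number, and the letters A, B and C for 5G2del and A, B, C and D for WT only name them.

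The spliceosome removes introns in ordered steps. The U1 particle marks the start of the intron, and U2AF binds the tract and the AG at its end. The U2 particle with its SF3A and SF3B proteins binds the branch point. The U4, U5 and U6 particles then join before the catalytic core forms. Sm proteins form the ring on which each of the particles other than U6 is built, PRPF proteins (named after yeast Prp genes) hold and rearrange the particles, and SR proteins bind exons and draw the machinery to weak sites. Mutations in SF3B1, SRSF2, U2AF1 and ZRSR2 are among the most frequent in human myelodysplastic syndromes. Values here are totals per gene, so inclusion of an exon, the mutation of a splicing factor or the shift of an SR gene toward its unproductive transcript cannot be read from them.

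Library sizes implied by the deposited values ran from 34865420 to 55716549, and the expected counts of listed genes summed to 37930174 to 52194274. The listed sum exceeded the implied size in 5G2del-C (47664360 against 41220903) and WT-C (42038974 against 34865420). The implied sizes are therefore scaled ones, not plain totals of counts. WT-B had the most genes at 0 counts (1104, against 83 to 492 in the others), and the share of mitochondrial ribosomal RNA ran from 22.9% to 33.4%. The early progenitor markers Kit (mean log2 CPM 8.20 ± 0.02 for 5G2del, 8.11 ± 0.10 for WT; SD, n = 3 and n = 4) and Cd34 (8.30 ± 0.16 and 8.17 ± 0.21) were high in both groups, whereas Slamf1 was at 0.40 to 0.65 log2 CPM in 5G2del and -2.22 to -0.26 in WT, low in both groups and without overlap. Of the 9 early progenitor markers 9 were measured, 6 higher and 3 lower on average in 5G2del. Their summed level was 1326 to 1458 CPM in 5G2del and 1280 to 1463 in WT, with overlap. Their mean, Slamf1 included, was 6.12 to 6.33 log2 CPM in 5G2del and 5.79 to 6.06 in WT, without overlap. Markers of mature cells were present at levels that varied by library: those of neutrophils and monocytes summed to 209 to 1664 CPM in 5G2del and 167 to 559.6 in WT, with 12 of 12 higher on average in 5G2del, and those of the erythroid lineage to 64.7 to 173 and 111 to 344, with 11 of 11 lower. Summed levels of megakaryocyte (24.9 to 42.9 CPM in 5G2del, 20.8 to 34.1 in WT), B cell (17.0 to 23.7, 9.64 to 17.4), T and NK cell (44.8 to 81.5, 18.5 to 43.9) and mast cell and basophil markers (1.23 to 3.60, 0.470 to 1.77) were at most 81.5 CPM in any library, with 5 of 6, 4 of 8, 4 of 8 and 1 of 4 listed genes measured and 4, 3, 2 and 1 of them higher in 5G2del. The part of these cells in the values of splicing factor genes was not tested, and in bulk libraries fewer cells of a type and less RNA per cell cannot be told apart.

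None of the 49 splicing factor genes passed the threshold. A linear model with a trend in the variance (limma-trend) on log2 CPM, adjusted over all genes by Benjamini-Hochberg at 0.05, called 0 members and 0 of 16760 genes (0%), while 656 genes had an unadjusted p under 0.05; the authors' deposited table also held 0 calls. Members with an unadjusted p under 0.05 numbered 3, or 6.12%, all higher in 5G2del, where 3.91% of all genes had one (1.68% higher and 2.24% lower), a rate that would give 1.92 of 49. Fold changes are 5G2del over WT. Of the members, 35 of 49 lay higher and 14 lower in 5G2del, against 53.3% higher among all genes, and their median log2 fold change was 0.11 against 0.03 over all genes. The split around 0 depended on which scaling was used. Centred on the median gene, 34 of 49 members and 50.9% of all genes lay higher. Quantile normalized, 35 of 49 members did, and with array weights 38 of 49. CPM was also rescaled to the total of listed counts without mitochondrial ribosomal RNA, which replaces the deposited library sizes. That setting drops both this RNA and the deposited scaling, and shifts the log2 fold change of every gene by -0.08. With it, 26 of 49 members (53.1%) and 44.8% of all genes lay higher. The medians were then 0.033 and -0.048, as far apart as before. Without WT-A 29 of 49 members lay higher and their median was 0.056, against 0.018 over all genes. Without 5G2del-B 30 of 49 members lay higher and their median was 0.044, against 0.026 over all genes, the closest of the fits with 1 library left out. Leaving out each of the other libraries in turn gave 33 to 36 of 49 members higher. For 25 of 49 members the sign turned in at least 1 other setting. For 40 of 49 members the log2 fold change was smaller than 0.3 in either direction.

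**Figure D1:**
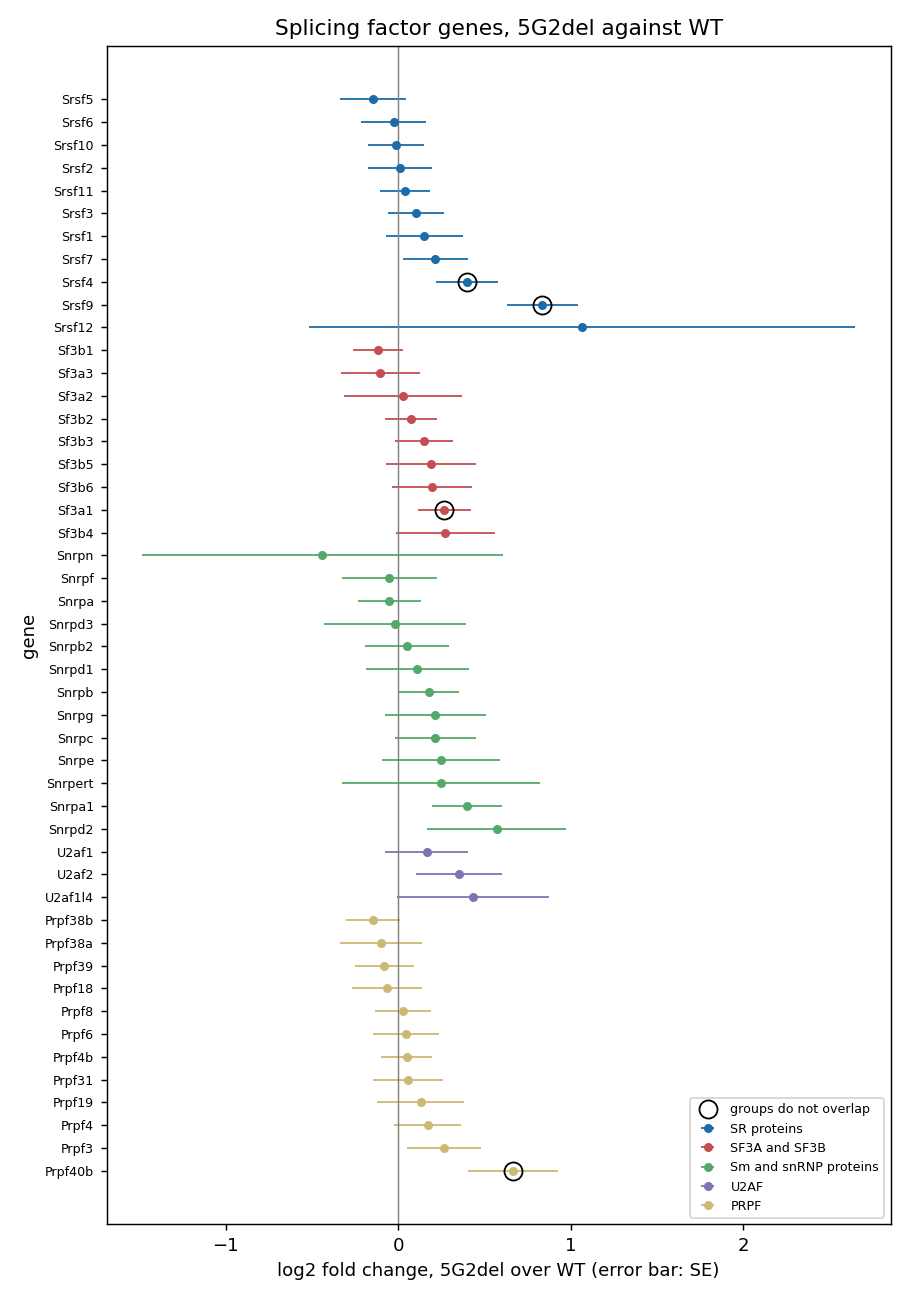
Log2 fold change of 48 of the 49 splicing factor genes (x axis, 5G2del over WT, bars SE) by gene (y axis), coloured by subfamily, with a ring around members whose 5G2del and WT libraries did not overlap. Most points lie within 0.3 of 0, the 4 ringed members Srsf9, Srsf4, Prpf40b and Sf3a1 lie to the right, and the bars are widest for Srsf12 and Snrpn, which had 0 and 8 expected counts in their lowest library.

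The groups did not overlap for 4 members, Srsf9, Srsf4, Prpf40b and Sf3a1, all higher in 5G2del. Among all genes 5.70% had no overlap (2.92% with 5G2del higher and 2.78% with 5G2del lower), a rate that would give 2.79 of 49 members, so the count of 4 is close to the background. These members lie on chromosomes 5, 4, 15 and 11. The 250 bases upstream of their RefSeq starts, which can differ from the GENCODE starts, are shown because the groups of these members did not overlap. They run 5′ to 3′ on the gene's strand and come from the RefSeq promoter table of build GRCm38.p6, with the motifs searched in capitals. Srsf9 is chr5:115326927-115327176, Srsf4 chr4:131873387-131873636, Prpf40b chr15:99294991-99295240 and Sf3a1 chr11:4160104-4160353, all on the plus strand.
Srsf9: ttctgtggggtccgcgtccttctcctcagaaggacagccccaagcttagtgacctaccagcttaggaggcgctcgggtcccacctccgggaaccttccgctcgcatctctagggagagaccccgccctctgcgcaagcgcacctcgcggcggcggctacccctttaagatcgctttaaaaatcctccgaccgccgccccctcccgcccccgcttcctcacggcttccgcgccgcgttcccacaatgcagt
Srsf4: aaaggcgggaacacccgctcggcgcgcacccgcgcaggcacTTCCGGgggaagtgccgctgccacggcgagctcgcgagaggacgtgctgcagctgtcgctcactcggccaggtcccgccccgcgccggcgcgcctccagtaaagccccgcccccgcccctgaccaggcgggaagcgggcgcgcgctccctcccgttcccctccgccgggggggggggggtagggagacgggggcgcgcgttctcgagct
Prpf40b: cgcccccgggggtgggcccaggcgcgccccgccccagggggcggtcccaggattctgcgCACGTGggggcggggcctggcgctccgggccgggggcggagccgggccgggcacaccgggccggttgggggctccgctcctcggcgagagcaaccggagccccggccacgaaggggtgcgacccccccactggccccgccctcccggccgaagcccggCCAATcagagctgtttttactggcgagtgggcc
Sf3a1: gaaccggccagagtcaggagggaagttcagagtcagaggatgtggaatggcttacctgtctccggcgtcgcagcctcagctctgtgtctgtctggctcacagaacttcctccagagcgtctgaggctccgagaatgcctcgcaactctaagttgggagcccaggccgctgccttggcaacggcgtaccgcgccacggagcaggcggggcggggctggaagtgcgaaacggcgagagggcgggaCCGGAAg
The letters searched on both strands were CCAAT (the CCAAT box), TATAAA (the TATA box), CCGGAA (the core bound by ETS factors) and CACGTG (the E-box). Srsf9 held none of them, Srsf4 and Sf3a1 held CCGGAA, and Prpf40b held CCAAT and CACGTG. All 4 windows were rich in G and C, from 64.0% in Sf3a1 to 79.6% in Prpf40b, with 20 to 37 CG pairs each, where the medians were 59.6% and 15 over promoters of the listed genes and 52.0% and 6 over all promoters. A promoter entry was found for 41 of the 49 members, of which 22 held CCGGAA, or 53.7%, against 22.1% of 10793 promoters of genes in the deposited table and 12.2% of all 27025 promoters. CCAAT was in 16 of 41 member promoters (39.0%, against 36.6% of the listed genes and 34.5% of all promoters). TATAAA was in 4 (9.76%, against 6.60% and 13.0%) and CACGTG in 3 (7.32%, against 8.27% and 6.05%). Member promoters had medians of 58.8% G and C and 19 CG pairs. A match describes the letters alone.

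SR proteins were the most abundant members per length, and 8 of the 11 lay higher in 5G2del (median log2 fold change 0.10). On the scale of log2 CPM per kilobase of transcript, Srsf5 was highest of all 48 protein-coding members at 8.43, followed by Srsf3 at 7.91, Srsf2 at 7.34, Srsf7 at 7.06, Srsf6 at 6.57 and Srsf1 at 6.05. The level of the lowest SR gene, Srsf12, was -2.65. Srsf9 (3.87) and Srsf4 (4.07) were among the less abundant SR genes.

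Srsf9 encodes a small SR protein that binds exonic enhancers. Its values, in the order of the letters as in all lists that follow, were 4.56, 4.59 and 4.55 log2 CPM in 5G2del and 3.68, 3.92, 3.46 and 3.87 in WT. The 5G2del libraries lay close together, and each was above every WT library. The means were 4.57 ± 0.02 (SD, n = 3) for 5G2del and 3.73 ± 0.21 (SD, n = 4) for WT. The log2 fold change was 0.84 ± 0.21 (SE), or 1.78-fold. It had the lowest unadjusted p of the members (limma unadjusted p = 0.00188) but did not pass over all genes (limma adjusted p = 0.989). The exact two-sided permutation p was 0.0286, the smallest that 35 splits of 7 libraries allow, and which any member without overlap has by construction. With each library left out in turn, the log2 fold change stayed between 0.74 and 0.90. The unadjusted p stayed under 0.05 in each of 15 other settings. Srsf9 is the only member on chromosome 5, at chr5:115327177-115333080 of mm10, and no exon of another annotated gene overlaps its exons.

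Srsf4 encodes a large SR protein with a long arginine and serine tail. It was at 5.48, 5.72 and 5.20 log2 CPM in 5G2del and 5.09, 4.95, 5.06 and 5.18 in WT. The gap between the groups was narrow, with 5G2del-C just above WT-D. The log2 fold change was 0.40 ± 0.18 (limma unadjusted p = 0.0468, adjusted p = 0.989). Its unadjusted p was under 0.05 in 5 of 15 other settings. The groups overlapped when libraries were centred on their median gene, under quantile normalization and with the total without mitochondrial ribosomal RNA. The antisense transcript Gm12992 overlaps 43.0% of the exon bases of Srsf4. Gm12992 was scarcer, at a mean of 1.37 log2 CPM, with a log2 fold change of -0.22 ± 0.46, and strand was not stated, so reads of the pair cannot be told apart.

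**Figure D2:**
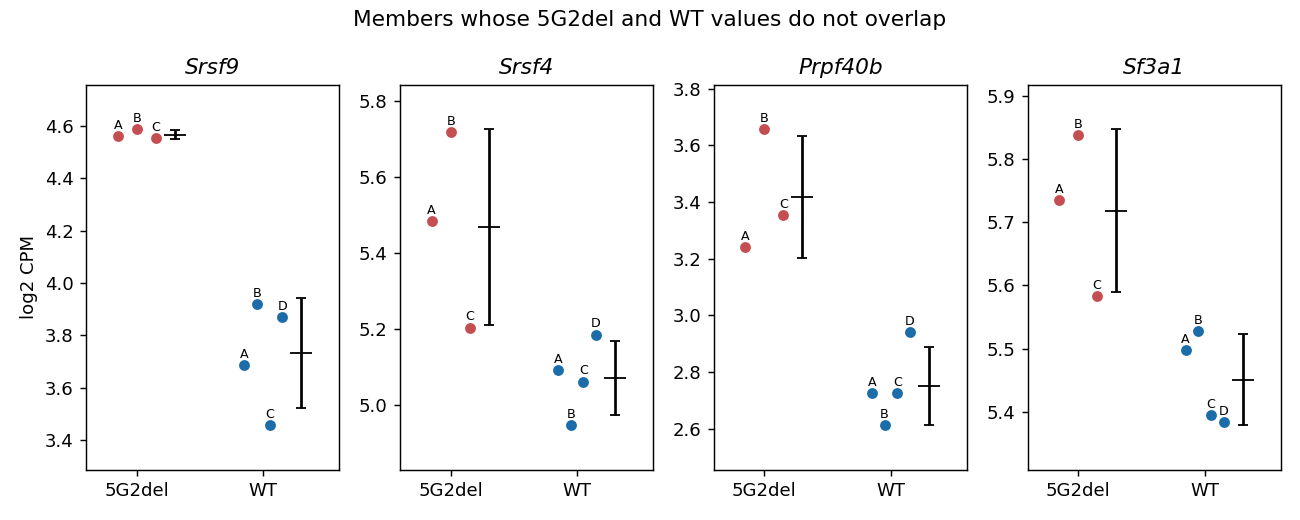
Log2 CPM (y axis, own scale in each panel) of Srsf9, Srsf4, Prpf40b and Sf3a1 in the 3 5G2del and 4 WT libraries, with letters naming the library and bars for mean and SD. Each 5G2del point lies above each WT point, with the widest gap for Srsf9 (4.55 against 3.92) and the narrowest for Srsf4 (5.20 against 5.18).

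Srsf2, which is mutated in human myeloid neoplasms, was at 8.11, 8.23 and 7.76 log2 CPM in the 5G2del libraries and 8.16, 8.21, 7.60 and 8.12 in WT. The lowest library of each group, 5G2del-C and WT-C, lay well under its companions, and the groups overlapped throughout. Its log2 fold change was 0.01 ± 0.19, with a 95% interval from -0.40 to 0.42. The antisense partners Mettl23 and Mfsd11 together overlap 25.3% of the exon bases of Srsf2. Mettl23 had a log2 fold change of 0.66 ± 0.19, from 4.56 to 4.76 log2 CPM in 5G2del and 3.93 to 4.09 in WT. The scarcer Mfsd11 lay the other way, at -0.59 ± 0.37. Strand was not stated, so reads of these overlaps cannot be told apart.

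The other SR genes varied by library more than by group. Srsf1, the founding member of the family, was at 7.76, 8.04 and 7.29 log2 CPM in 5G2del and 7.82, 7.54, 7.07 and 7.77 in WT (log2 fold change 0.15 ± 0.22, from -0.02 without 5G2del-B to 0.35 without 5G2del-C). Srsf5, which contributed the highest level per length, was at 9.0, 8.73 and 9.06 in 5G2del and 8.71, 8.97, 9.47 and 9.15 in WT (-0.15 ± 0.19). Srsf3, an SR protein that also aids export of mRNA, was at 8.94 in WT-A and between 9.27 and 9.50 elsewhere (0.10 ± 0.16), and Srsf7, another export-linked SR protein, was at 7.23 in WT-A and between 7.70 and 8.01 elsewhere (0.22 ± 0.19). WT-C was the lowest library for Srsf1, Srsf2 and Srsf9 and the highest for Srsf5, Srsf6 and Srsf7, while WT-A was the lowest for Srsf3, Srsf5, Srsf6 and Srsf7. Srsf6 had a log2 fold change of -0.03 ± 0.19 and Srsf10, which represses splicing in its dephosphorylated form, of -0.01 ± 0.16. Srsf11 was among the steadiest members, at 6.60 to 6.86 in 5G2del and 6.50 to 6.76 in WT (0.04 ± 0.15; SD over 7 libraries 0.11). Srsf12 was at 0 counts in WT-B, under the floor of 3 counts (0.0538 to 0.0860 CPM over the libraries), and ran from -1.44 to 1.59 log2 CPM in the others (1.06 ± 1.58, and -0.54 without WT-B).

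In the branch point machinery, Sf3a1, the largest SF3A subunit, was at 5.73, 5.84 and 5.58 log2 CPM in 5G2del and 5.50, 5.53, 5.40 and 5.38 in WT. Every 5G2del library was above every WT library by a small margin. The log2 fold change was 0.27 ± 0.15 (limma unadjusted p = 0.110, adjusted p = 0.989), and the groups overlapped with the total without mitochondrial ribosomal RNA, where it was 0.19. The other SF3A subunits were nearer 0, with Sf3a2 at 0.03 ± 0.34 and Sf3a3 at -0.11 ± 0.23. Sf3a2 was the least abundant of the 9 genes per length, at 1.69 log2 CPM per kilobase, and measured 2.38, 2.34 and 2.15 log2 CPM in 5G2del and 2.12, 2.81, 1.96 and 2.16 in WT.

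Sf3b1, the subunit that clasps the branch point and the splicing gene most often mutated in myelodysplastic syndromes, was the most abundant of the SF3 genes per length (5.56). It measured 8.21, 8.04 and 8.13 log2 CPM in 5G2del and 8.24, 8.15, 8.48 and 8.11 in WT, with WT-C highest and overlapping groups. Its log2 fold change was -0.12 ± 0.15, with a 95% interval from -0.44 to 0.20 and a range from -0.16 to -0.04 with 1 library left out. The remaining SF3B genes had values that were small against their SE or of its size, with Sf3b2 at 0.07 ± 0.15, Sf3b3 at 0.15 ± 0.17, Sf3b4 at 0.27 ± 0.29, Sf3b5 at 0.19 ± 0.26 and Sf3b6, which sits at the branch adenosine, at 0.20 ± 0.23. All of these overlapped between groups. With 1 library left out, Sf3b2 ran from -0.0015 (without WT-C) to 0.15 (without WT-B). Sf3b3 ran from 0.027 (without 5G2del-B) to 0.27 (without 5G2del-A), and Sf3b4 from 0.073 (without WT-D) to 0.41 (without WT-B). Sf3b5 ran from 0.018 (without WT-A) to 0.36 (without WT-B), and Sf3b6 from 0.045 (without WT-A) to 0.35 (without 5G2del-A). In all, 7 of the 9 SF3 genes lay higher and 2 lower in 5G2del, with a median of 0.15.

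U2AF, which recognises the end of the intron, was higher on average for each of its 3 genes, and 0 of the 3 had an unadjusted p under 0.05. U2af1, the small subunit and a further mutation target in myelodysplastic syndromes, was at 4.45, 4.72 and 4.17 log2 CPM in 5G2del and 4.08, 4.56, 3.92 and 4.56 in WT. Its groups overlapped, with a log2 fold change of 0.16 ± 0.24 and a 95% interval from -0.36 to 0.69. With 1 library left out the log2 fold change ran from 0.027 (without 5G2del-B) to 0.30 (without 5G2del-C). U2af2, the large subunit, was at 6.05, 6.09 and 5.50 in 5G2del and 5.09, 5.97, 5.23 and 5.82 in WT (0.35 ± 0.25; 0.20 without WT-A, 0.54 without 5G2del-C). U2af1l4, a close relative of the small subunit, was the lowest of the 3 per length at 2.84 and split the WT group, with 1.55 and 1.58 log2 CPM in WT-A and WT-B against 2.79 and 3.03 in WT-C and WT-D. It was at 2.81, 2.92 and 2.28 in 5G2del (0.44 ± 0.44, from 0.21 without WT-A to 0.70 without WT-D). Other genes overlap 72.8% of its exon bases. They are Psenen on the opposite strand (0.52 ± 0.21) and Gm49396 on the same strand (0.96 ± 0.43, at a mean of 2.15 log2 CPM). Reads of these overlaps cannot be told apart, so the value of U2af1l4 is uncertain.

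**Figure D3:**
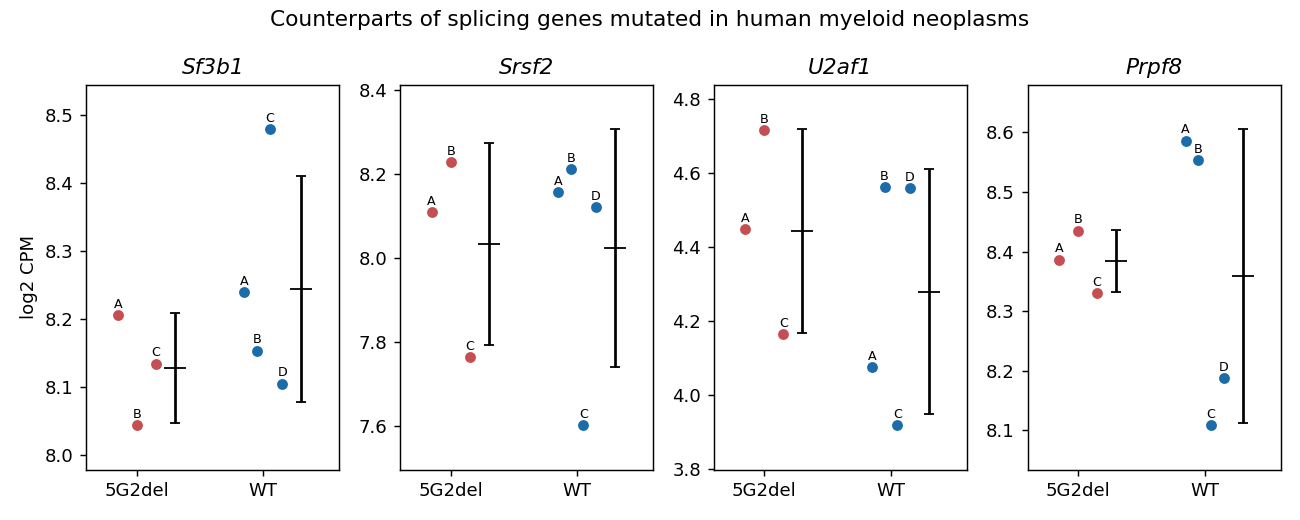
Log2 CPM (y axis, own scale in each panel) of Sf3b1, Srsf2, U2af1 and Prpf8, mouse counterparts of splicing genes mutated in human myeloid neoplasms, in the 3 5G2del and 4 WT libraries, with letters naming the library and bars for mean and SD. The groups overlap in every panel, and WT-C stands apart from its companions, highest for Sf3b1 and lowest for Srsf2.

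The Sm ring was the part of the set that varied most from library to library. The mean of its 7 genes (Snrpb, Snrpd1, Snrpd2, Snrpd3, Snrpe, Snrpf and Snrpg) was 4.66, 5.30 and 5.45 log2 CPM in 5G2del and 4.37, 5.19, 5.15 and 5.11 in WT. WT-A was lowest and 5G2del-A next, so each group held 1 low library and the rest were close together. WT-A was the lowest library for 5 of the 7 genes. Snrpd2 showed this most, at 4.00 in WT-A and 5.15 in 5G2del-A against 5.47 to 6.20 in the other libraries, and its log2 fold change of 0.57 ± 0.40 was 0.17 without WT-A. Snrpe was at 4.00 in WT-A and 4.86 to 5.68 elsewhere (0.25 ± 0.34, and -0.08 without WT-A), and Snrpg at 4.70 in WT-A and 5.60 to 6.14 elsewhere (0.21 ± 0.29, and -0.08 without WT-A). Snrpd1 was at 0.11 ± 0.30, and at -0.15 without WT-A. Snrpb was lowest in WT-C, and Snrpd3 in 5G2del-A, at 2.22 against 3.00 to 4.17 in the others (-0.02 ± 0.41; 0.52 without 5G2del-A and -0.45 without 5G2del-C).

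WT-A and 5G2del-A also had the lowest mean of 86 cytosolic ribosomal protein genes, at 8.05 and 8.84 log2 CPM against 8.95 to 9.47 elsewhere, and these 2 libraries held the highest neutrophil and monocyte marker means (4.45 and 5.53 log2 CPM, against -2.01 to 0.89). Transcript length moved with the level in WT-A. Across the 46 members with a mean log2 CPM over 2, Spearman's rho between median transcript length and the level in WT-A less the mean of the other 6 libraries was 0.52, and across 10352 genes of the table it was 0.47; these points share 1 library, and genes are not independent replicates. The 23 shorter members (550 to 2061 bases) had a median deviation of -0.36 in WT-A, and the 23 longer ones of -0.00029. In the other libraries rho among the members ran from -0.33 to 0.21. The 23 shorter members had a median log2 fold change of 0.16 and the 23 longer ones of 0.07. The part of RNA quality, library preparation or cell mix in these differences was not tested.

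**Figure D4:**
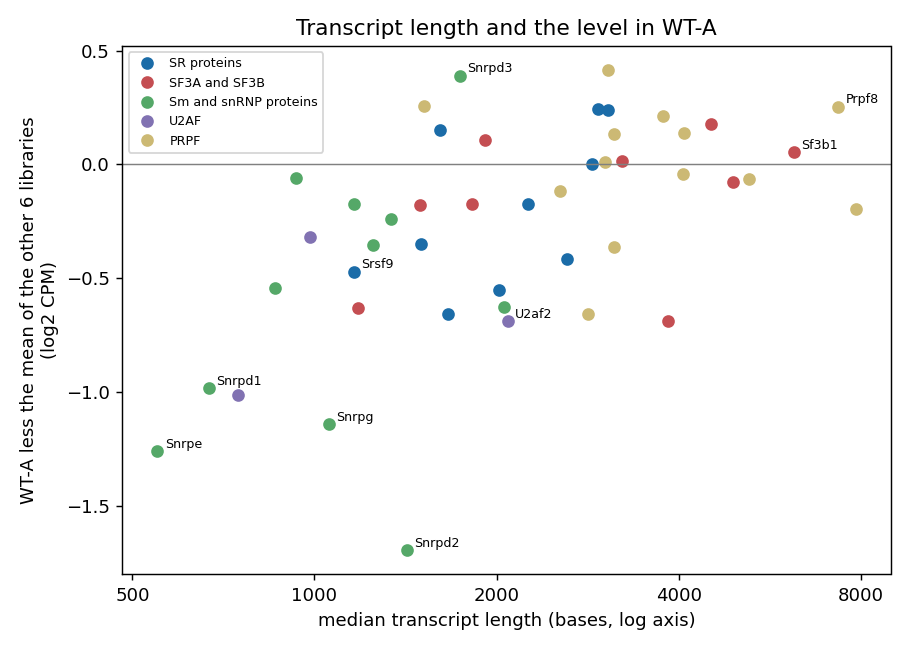
Level in WT-A less the mean of the other 6 libraries (y axis, log2 CPM) against median transcript length (x axis, bases, log axis) for the 46 members with a mean log2 CPM over 2, coloured by subfamily. Snrpd2, Snrpe, Snrpg, U2af1l4 and Snrpd1, among the shorter transcripts, lie lowest. Among the longest, Prpf8 and Sf3b1 lie above 0, and Prpf4b, Prpf4 and Sf3a1 lie below 0.

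Of the 13 Sm and other snRNP genes, 9 lay higher in 5G2del (median log2 fold change 0.18). Among the particle-specific proteins, Snrpa1 of the U2 particle had the lowest unadjusted p of the Snrp genes. It was at 4.72, 5.03 and 4.56 log2 CPM in 5G2del and 4.24, 4.45, 4.19 and 4.60 in WT, where WT-D was above 5G2del-C. The log2 fold change was 0.40 ± 0.20 (limma unadjusted p = 0.0738, adjusted p = 0.989). Its partner Snrpb2 was at 0.05 ± 0.24, and the U1 proteins Snrpa and Snrpc were at -0.05 ± 0.18 and 0.21 ± 0.24. Snrpb, the main Sm ring gene next to its brain-enriched relative Snrpn, was at 5.84, 6.16 and 5.92 in 5G2del and 5.72, 6.03, 5.52 and 5.91 in WT (0.18 ± 0.17). Snrpn, an imprinted gene expressed from the paternal allele, was low and erratic, with 0.20, -0.87 and 0.91 log2 CPM in 5G2del and 0.36, 3.20, -2.04 and 0.56 in WT. Its log2 fold change of -0.44 ± 1.04 was 0.45 without WT-B and -1.29 without WT-C, and 44.1% of its exon bases overlap other genes, Snurf included.

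Snrpert is a processed pseudogene named for Snrpe, and reads of such a pair may be divided between the genes by estimate. Snrpert measured 0.62, 1.14 and 1.3 log2 CPM in 5G2del and -0.43, 1.08, 1.43 and 1.01 in WT. It was lowest in WT-A and second lowest in 5G2del-A, as Snrpe was, and the values of the pair are uncertain. Between the transcripts of other related members, the longest identical run was 32 bases for Snrpb and Snrpn and 15 for U2af1 and U2af1l4, shorter than the 100 cycles read from each end.

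PRPF genes varied least between libraries among the 5 subfamilies. The mean of the 13 genes was 5.48, 5.56 and 5.39 log2 CPM in 5G2del and 5.44, 5.42, 5.42 and 5.37 in WT, so the libraries lay close together. The median log2 fold change was 0.05, with 8 higher and 5 lower. Prpf8, the large scaffold of the U5 particle that cradles the catalytic RNA, was the most abundant per length (5.49). It measured 8.39, 8.44 and 8.33 log2 CPM in 5G2del and 8.59, 8.55, 8.11 and 8.19 in WT, so that the 5G2del values lay between the WT ones (0.03 ± 0.16; 95% interval -0.33 to 0.38). Prpf4b, a kinase that acts on the tri-snRNP, was at 6.27 to 6.51 in 5G2del and 6.22 to 6.48 in WT (0.05 ± 0.15). The tri-snRNP proteins Prpf3, Prpf4, Prpf6 and Prpf31 were at 0.27 ± 0.22, 0.17 ± 0.19, 0.05 ± 0.19 and 0.06 ± 0.20. Prpf19, the ubiquitin ligase that stabilises the catalytic core, was at 0.13 ± 0.25, and Prpf18, which acts in the second step, at -0.07 ± 0.20. Prpf38a, Prpf38b and Prpf39 were at -0.10 ± 0.24, -0.15 ± 0.16 and -0.08 ± 0.17.

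Prpf40b, a relative of a yeast protein that contacts the U1 particle, was at 3.24, 3.66 and 3.35 log2 CPM in 5G2del and 2.73, 2.61, 2.72 and 2.94 in WT. Each 5G2del library was above each WT library. The log2 fold change was 0.67 ± 0.26, or 1.59-fold (limma unadjusted p = 0.0270, adjusted p = 0.989), and it ran from 0.55 without 5G2del-B to 0.75 without 5G2del-A. On the scale of level per kilobase Prpf40b was at 1.39.

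**Figure D5:**
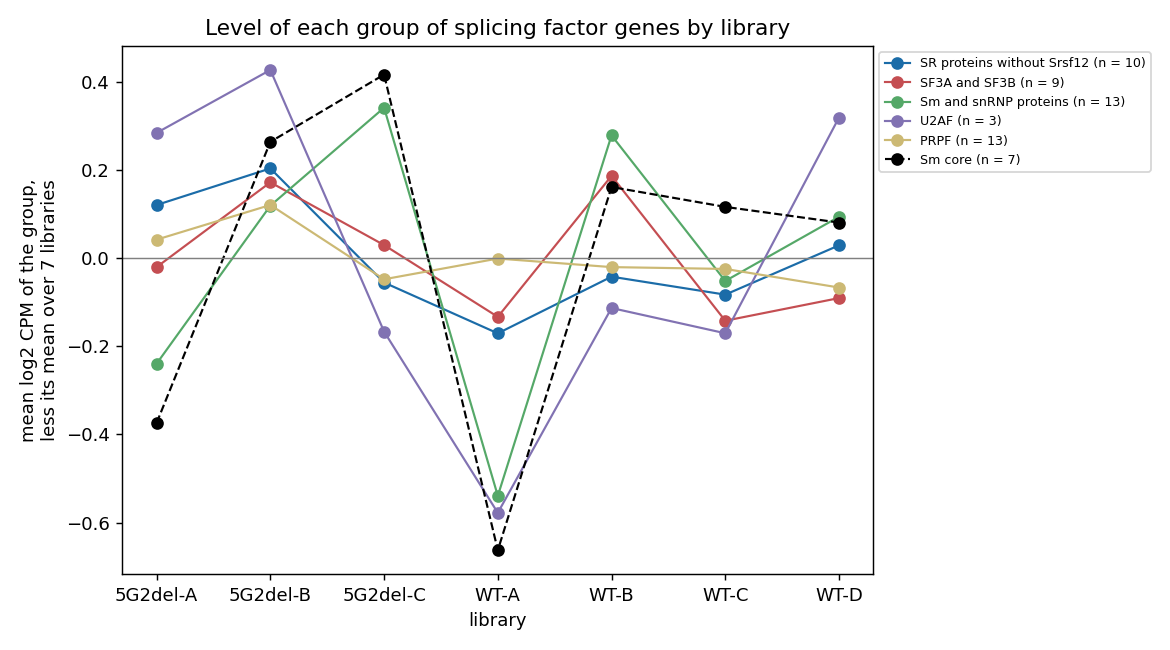
Mean log2 CPM of each group of members in each library, less its mean over the 7 libraries (y axis, log2 CPM; x axis, library); the SR line leaves out Srsf12, which was at 0 counts in WT-B. The Sm ring (Sm core in the key) lies low in WT-A and 5G2del-A (4.37 and 4.66 against 5.11 to 5.45), while the PRPF line stays nearly flat.

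Over all members, the spread between libraries was of the usual size. The median SD over 7 libraries was 0.27 log2 CPM for the 46 members with a mean over 2 and 0.32 for the 10358 genes past that level. The highest SDs were those of Srsf12 (2.52), Snrpn (1.62) and Snrpd2 (0.73), and those of Prpf4b (0.11) and Srsf11 (0.11) were the lowest. WT-A was the lowest library for 18 of the 49 members and WT-C for 13, and 5G2del-B was the highest for 18.

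The wider pathway was read from 7 lists with 134 measured genes that are not members. In limma-trend 0 of 134 passed the adjusted threshold, 4 had an unadjusted p under 0.05 (3.91% of all genes did), and 77 lay higher and 57 lower in 5G2del, and the median log2 fold change was 0.02. By list, 20 of 33 other snRNP proteins were higher (median 0.04), 11 of 18 early recognition factors and helicases (0.02), 13 of 19 PRP19-linked and catalytic step proteins (0.04), 7 of 15 SR kinases, carriers and SR-related proteins (-0.00045), 10 of 26 hnRNP proteins (-0.03), 4 of 7 exon junction proteins (0.11) and 12 of 16 snRNP assembly factors (0.08). Those with an unadjusted p under 0.05 were the helicase Dhx16 (0.61 ± 0.20), the cyclophilin Ppie (0.66 ± 0.27), Srrt (-0.51 ± 0.17) and the polypyrimidine tract binding protein Ptbp3 (-0.35 ± 0.14), with limma adjusted p = 0.989 for each. Dhx16 was at 5.09, 4.96 and 4.96 log2 CPM in 5G2del and 4.19, 4.57, 4.14 and 4.70 in WT.

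Srrt and Bud31 are pathway genes on chromosome 5 of mm10 whose human counterparts lie in 7q22. Srrt, a zinc finger protein of the cap-binding and RNA processing machinery, at chr5:137295704-137307674, was at 5.49, 5.63 and 5.28 log2 CPM in 5G2del and 5.75, 6.17, 5.88 and 6.09 in WT, with each 5G2del library below each WT library. Bud31, a protein of the catalytic spliceosome at chr5:145140362-145148078, was at 4.32, 4.40 and 4.45 in 5G2del and 3.64, 3.65, 4.89 and 4.57 in WT, with overlap (0.20 ± 0.31; 0.02 without WT-A or without WT-B, 0.44 without WT-C, and -0.01 with array weights). Luc7l2, a U1-linked gene on human 7q that is lost or mutated in myeloid neoplasms and lies on mouse chromosome 6, was at 6.79, 6.23 and 6.38 in 5G2del and 6.72, 6.82, 6.64 and 6.64 in WT (-0.24 ± 0.17; 95% interval -0.61 to 0.12). Ddx41, a helicase mutated in familial myeloid neoplasms, had a log2 fold change of 0.22 ± 0.22 (95% interval -0.27 to 0.71). Zrsr2 was sought, but no gene of the deposited table carried that symbol.

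Summed levels of proliferation genes overlapped between the groups. S phase genes were higher on average in 5G2del for 16 of 16, with summed levels of 1214 to 1567 CPM in 5G2del and 866 to 1322 in WT, and G2 and M phase genes for 15 of 16, with 464 to 850 and 422 to 1231 CPM. Their part in the values of splicing factor genes was not tested.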

How the data were processed

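RNA of CD150-negative cells (4 WT and 3 5G2del samples) was amplified and sequenced as paired ends, per the labels' protocols. The authors deposited 1 table of log2 CPM per library, in steps that match an offset of 0.5 count. It also holds the authors' log2 fold change, a t score, and their p-value and q-value, for 16760 genes. The submitters' processing notes list STAR (2.7.9a), RSEM (1.3.0), limma (3.50.3) and, with no role, both mm10 and GRCh38. The sources used here do not give the annotation, low-value filter or scaling. The library sizes implied by the values were not plain totals of counts. The deposited values step back to expected counts of 2 decimals, which served for depth and floors alone. The number of per-sample columns left unused was 0.

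The comparison was fitted by limma (3.58.1, under R 4.3.3) with a variance trend, on the deposited log2 CPM, all 7 libraries, no covariate, two-sided, Benjamini-Hochberg adjusted over all genes. It was tested on simulated data, with noise drawn separately for each gene and library. That test cannot cover deviations that many genes of a library share, such as those of WT-A. Fold changes are on the log2(CPM) scale with that offset, which can understate changes of low genes. A library at 0 counts can also enlarge or turn them. Srsf12, at 0 counts in WT-B, had a log2 fold change of 1.06, and of -0.032 as log2(CPM + 1). Counting floors cover counting error alone, because the amplified reads carry no molecular identifiers and are not independent. Single genes were also compared by exact permutation of the 7 libraries. Transcript length is the median over a gene's basic protein-coding GENCODE M21 transcripts, which matched 16748 of the 16760 identifiers. No library pair was a copy by chi-square (at least 63.8 per degree of freedom).

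The members and lists were chosen with earlier results of these data known. Named members were the counterparts of genes mutated in myeloid neoplasms, the lowest p and the highest and lowest level per kilobase in each subfamily, each with an unadjusted p under 0.05 or groups without overlap, and the 3 highest and 3 lowest SDs; further members are given as values. The values of 1 member and 1 sequence are not reported here. Lists covered 7 parts of the splicing pathway, 7 cell types, 2 cell cycle phases and the cytosolic ribosomal protein genes. Alternatives were no trend, a filter at a mean log2 CPM of 2, log2(CPM + 1), other scalings, array weights, the authors' own values and each library left out.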

Additional observations from a re-analysis of the deposited data

Results flagged for a closer look

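Dixon's test at 95% was applied to the 4 WT libraries of the 49 members and to 7 group means, 56 in all, and chance alone marks about 1 in 20. It marked 6, each for 1 WT library far from the rest: Prpf31 (gap over range 0.833, WT-C low at 4.53), Srsf2 (0.851, WT-C low), Srsf3 (0.845, WT-A low), Srsf6 (0.839, WT-A low), the mean of the SF3A and SF3B genes (0.843, WT-B high at 5.59) and the mean of the Sm ring (0.902, WT-A low at 4.37). Groups of 3 libraries were not tested.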

How the results depend on the processing

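No paired analysis was possible because no column name holds a replicate number of the labels. Members called stayed at 0 in all 15 alternatives. Over all genes 1 gene was called without the trend (Sfrp5) and 1 without 5G2del-C (Thbs1), and 0 to 1 with a library left out. The members' median log2 fold change was positive throughout, from 0.044 to 0.16 with 1 library left out. Members without overlap of the groups numbered 4, with 2 for the total without mitochondrial ribosomal RNA, 3 when centred on the median gene or quantile normalized, and 4 to 7 with a library left out, where smaller groups overlap less often (8.89% to 13.8% of all genes). Of the 260 values of single named members that a setting could move, 230 kept their sign and 30 turned, all of members whose groups overlapped; leaving out the trend or the low genes cannot move a log2 fold change. The total without mitochondrial ribosomal RNA shifts every gene by -0.08 and centring by -0.02, which alone turns values near 0. With the former, the log2 fold changes of Prpf4b, Prpf8, Sf3a2, Srsf11 and Srsf2 were -0.029, -0.053, -0.052, -0.039 and -0.067. Under quantile normalization Prpf8 was at -0.064 and Srsf2 at -0.039, and centred on the median gene Srsf2 was at -0.011. Srsf12 was at -0.032 as log2(CPM + 1) and -0.17 with array weights, where Snrpn was at 0.011. With 1 library left out, values ran from -0.0012 to 0.12 for Prpf4b, -0.058 to 0.10 for Prpf8, -0.074 to 0.21 for Sf3a2, -0.079 to 0.44 for Snrpe, -1.29 to 0.45 for Snrpn, -0.040 to 0.088 for Srsf11, -0.54 to 2.11 for Srsf12 and -0.13 to 0.15 for Srsf2. The cause was not tested for the settings other than those shifts. Srsf12 and Snrpn had 0 and 8 expected counts in their lowest library and 146 and 381 in their highest, while the other protein-coding members had at least 123. The cause of that spread was not tested.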
